A study of Saccharomyces cerevisiae with 6 samples.

Results

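The nuclear genes of the mitochondrial respiratory chain, together with the HAP genes that regulate many of them, were examined in budding yeast (Saccharomyces cerevisiae) with and without VPS1. The genes were chosen by name, from complexes II, III and IV, ATP synthase, cytochrome c, the NADH dehydrogenases and the Hap2, Hap3, Hap4 and Hap5 regulators. They number 44 of the 5449 genes measured. Each of the 44 was represented by 1 probe set. None of these probe sets has a name suffix that marks possible signal from more than 1 gene. Cross-hybridization was not tested beyond that. All 44 had mean levels above background in both strains. Subunits encoded by the mitochondrial genome were not analysed here.

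Wild type cells were of strain BY4741, a haploid laboratory strain of mating type a, and the mutant cells were of strain Y05072, labelled vps1Δ. VPS1 encodes a dynamin-like GTPase of vacuolar sorting and endocytosis, and the comparison asks how its loss alters transcript levels in normally growing cells. Each strain was measured on 3 Affymetrix 3' expression arrays of total RNA, and the design text calls the replicates biological and independent. All cultures grew at 30 degrees in supplemented minimal medium. The carbon source and the culture density at harvest, on which respiratory genes depend, are not stated in the labels. Each genotype is 1 named strain.

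The chain passes electrons from NADH and succinate to oxygen through ubiquinone and cytochrome c. Yeast has no proton-pumping complex I; the single-protein NADH dehydrogenases Ndi1, Nde1 and Nde2 take its place. Complex II is succinate dehydrogenase, complex III hands electrons to cytochrome c, complex IV reduces oxygen, and ATP synthase uses the resulting proton gradient. The DNA-binding subunits Hap2, Hap3 and Hap5 bind CCAAT boxes upstream of many of these genes, and Hap4 carries the activation domain. HAP4 is the subunit whose own transcription follows the carbon source, and glucose represses it.

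VPS1 read 10.32, 9.98 and 9.95 (log2) on the wild type arrays and 2.54, 2.40 and 2.23 on the deletion arrays. The deletion values were all below background, at least 91.5-fold lower (limma adjusted p = 1.65e-07). The deposited values of the deletion strain were higher throughout, by a median of 0.51 over all genes. On them 31 of the 44 genes passed as higher and 1 as lower, against 76.0% and 0.954% of all genes. Every level and difference below is therefore on values quantile normalized over the 6 arrays, a log2 scale on which the median difference of all genes was -0.04. It hides any change that most genes share. The 5 a-specific marker genes were high in both strains, with means of 11.48 to 13.27 in wild type and 10.98 to 12.43 in the deletion strain. All 5 lay lower in the deletion strain without overlap, by 0.32 to 0.85, as did 19.0% of all genes. As lower, 3 of them passed limma's test, against 6.28% of all genes. In a fit with replicate number as a block 5 passed, against 16.4% of all genes. Of 4 alpha-specific genes, whose wild type means were 4.34 to 8.28, STE3 rose by 0.54 ± 0.14 (limma adjusted p = 0.0466), and SAG1 passed as higher with the block only, at 0.37 ± 0.12. The others, MF(ALPHA)1 and MF(ALPHA)2, lay lower, at -0.38 ± 0.18 and -0.13 ± 0.15, and passed in neither fit. The part of this movement in the results below was not tested.

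HAP4 transcript fell by 1.09 ± 0.14 (log2, SE, n = 3 per strain), a 2.12-fold lower level, while HAP2, HAP3 and HAP5 did not pass the test. Of the 40 genes that encode the chain itself, 1 passed: NDE1, an external NADH dehydrogenase, fell by 0.57 ± 0.12. Together 2 of 44 genes passed, both lower, which is 4.55% against 13.0% of all genes in either direction and 6.28% lower. The median difference of the 44 was -0.05. The share that passed was thus below that of all genes, and the median was close to theirs. The test was limma's moderated test, 2-sided, with Benjamini-Hochberg adjustment over all 5449 genes and a threshold of 0.05.

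Arrays of the same replicate number resembled each other across the strains, less clearly for replicate 3, and the numbers were taken to pair the arrays (the check is given with the processing). When replicate number was added as a block, 12 of the 44 genes passed, 10 lower and 2 higher. That is 27.3% against 30.8% of all genes, of which 16.4% were lower and 14.4% higher. Those lower were SDH1, SDH2, COR1, CYT1, COX5B, ATP1, CYC1, CYC7, NDE1 and HAP4, and those higher were ATP7 and ATP18. On the deposited values HAP4, NDE1, COX5B and CYC1 also lay below wild type, by -0.54, -0.03, -0.16 and -0.16, while the other 6 lay above it by 0.06 to 0.21. Each SE printed below is from the fit without the block. Of the 44, 12 were lower in all 3 replicate pairs, against 35.2% of all genes, and 6 were higher in all 3, against 25.4%. The levels of the deletion strain lay wholly below those of wild type for 5 genes, against 19.0% of all genes, and wholly above for 0, against 15.0%. The 5 were HAP4, NDE1, COX5B, CYC1 and ATP1.

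**Figure D1:**
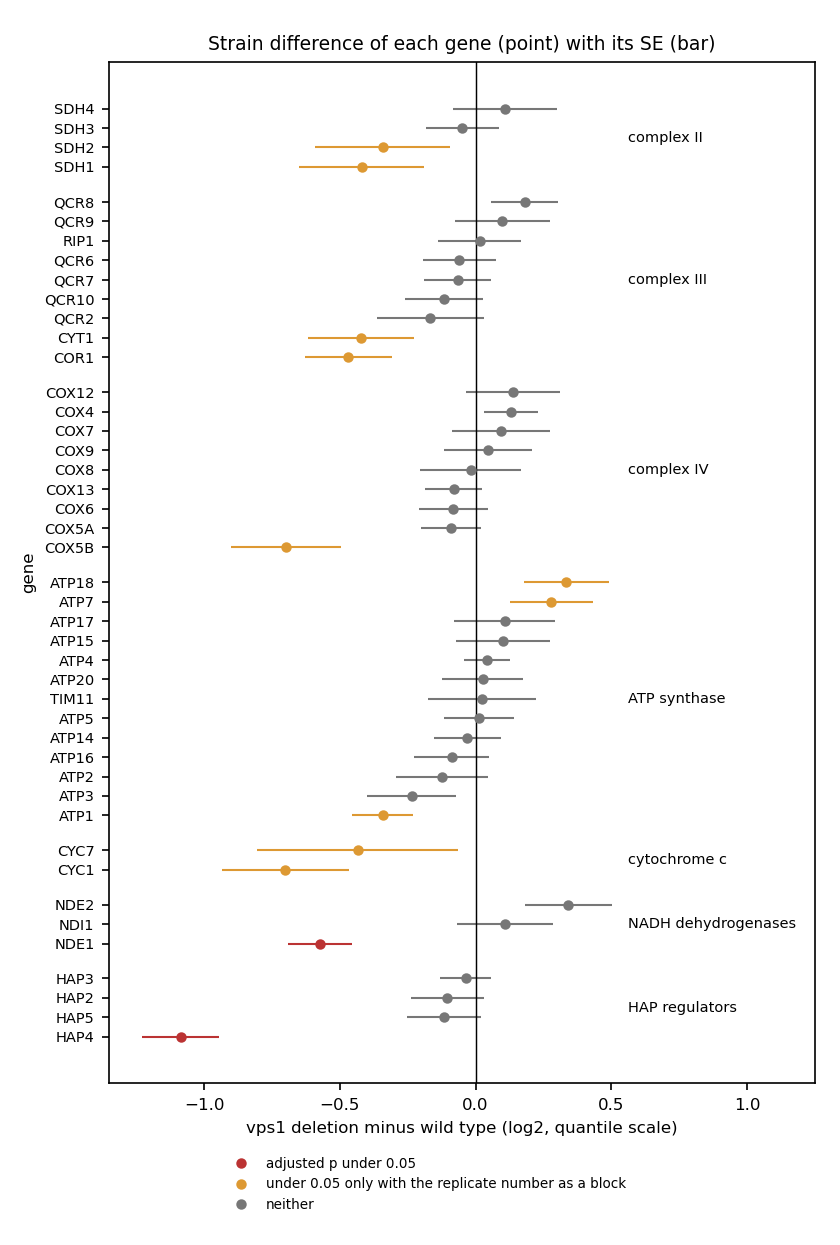
Difference between strains (vps1 deletion minus wild type, log2) of each of the 44 genes, grouped by complex, with its SE as a bar (n = 3 arrays per strain). HAP4 and NDE1 (red) passed the test, 10 further genes (orange) passed when replicate number was a block, and most subunits of complexes III and IV and of ATP synthase sit near 0.

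Among the regulators, HAP4 read 10.60, 10.59 and 10.35 on the wild type arrays and 9.56, 9.58 and 9.15 on the deletion arrays. The strains did not overlap, and the lowest wild type array was above the highest deletion array by more than the range within either strain. The difference passed the test (limma adjusted p = 0.00312, and 1.80e-04 with the block), with a 95% interval of -1.42 to -0.75. RNA came from whole cultures, so fewer cells that express a gene and less of its RNA per cell cannot be told apart. The differences within the 3 replicate pairs were -1.04, -1.02 and -1.20. HAP4 had the lowest difference of the 44 genes in each of the 16 fits run, and also lay below wild type on the deposited values, by -0.54 (limma adjusted p = 0.0112).

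HAP2 read 9.46, 9.13 and 9.15 in wild type and 9.29, 8.94 and 9.20 in the deletion strain. HAP3 read 8.91, 8.84 and 8.97 against 8.92, 8.77 and 8.92. HAP5 read 8.65, 8.26 and 8.22 against 8.32, 8.14 and 8.32. The strains overlapped in all 3 genes, which encode the DNA-binding part of the complex. Their differences were -0.10 (95% interval -0.42 to 0.21), -0.04 (-0.25 to 0.18) and -0.12 (-0.43 to 0.20), and none passed, with or without the block. Each of these intervals lies above that of HAP4 and leaves room for a modest change in either direction.

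The NADH dehydrogenases feed electrons to ubiquinone, Nde1 and Nde2 from the cytosolic side of the inner membrane and Ndi1 from the matrix side. NDE1 read 11.42, 11.22 and 11.06 in wild type and 10.71, 10.72 and 10.54 in the deletion strain, with no overlap. It was 1.49-fold lower (limma adjusted p = 0.0210, and 0.00291 with the block). Leaving out wild type replicate 2 or any 1 of the 3 deletion arrays moved its adjusted p to between 0.0513 and 0.0911, with the difference staying between -0.60 and -0.51. On the deposited values its difference was -0.03, while all genes had a median of 0.51.

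NDE2 read 5.31, 5.26 and 5.40 in wild type and 5.64, 5.35 and 6.0 in the deletion strain, above the background level of 3.50. Its difference was 0.34 (95% interval -0.03 to 0.72), higher in all 3 pairs, and did not pass (limma adjusted p = 0.208, and 0.0513 with the block). NDI1 read 8.79, 8.22 and 8.20 against 8.70, 8.38 and 8.45, a difference of 0.11 (-0.30 to 0.52) whose sign differed between pairs. Only NDE1 of the 3 passed; whether the difference of NDE1 differs from those of NDI1 and NDE2 was not tested.

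Cytochrome c carries electrons from complex III to complex IV, as iso-1 from CYC1, the main form in air, and iso-2 from CYC7, the form favoured at low oxygen. CYC1 read 10.50, 9.93 and 10.45 in wild type and 9.79, 9.12 and 9.87 in the deletion strain. The strains were separated by a narrow margin. Its difference was -0.70 ± 0.23 (log2, SE), and it passed with the block but not without (limma adjusted p = 0.00128 and 0.0922). Within pairs the differences were -0.72, -0.81 and -0.58.

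CYC7 read 7.28, 7.39 and 8.41 in wild type and 6.71, 7.18 and 7.89 in the deletion strain, with replicate 3 the highest in both. Its difference of -0.43 ± 0.37 passed only with the block (limma adjusted p = 0.0156). Its size depended on single arrays: without the block it was -0.08 without wild type replicate 3, -0.16 without deletion replicate 1 and -0.75 without deletion replicate 3. Both isoforms thus lay below wild type in every pair. The log2 ratio of CYC1 to CYC7 within an array changed by -0.27 between strains, with an exact permutation p of 0.5 over the 6 arrays (2-sided, 0.5 after adjustment over the 2 isoform pairs compared). That test takes no account of the pairs, in which the ratio changed by -0.14, -0.61 and -0.05.

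**Figure D2:**
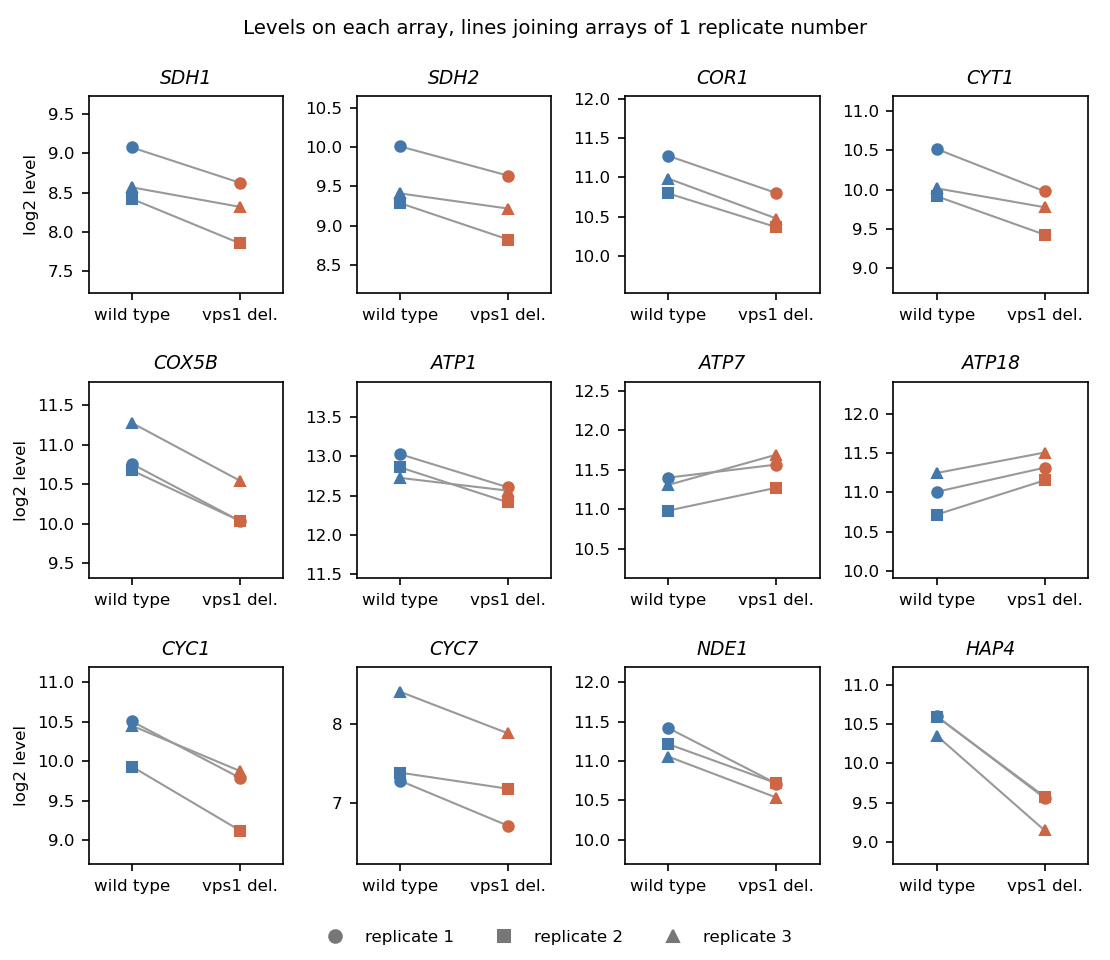
Log2 level on each array of the 12 genes that passed when replicate number was a block; lines join the wild type and the deletion array of 1 replicate number. All lines fall except in ATP7 and ATP18, where all rise, and HAP4 has the steepest lines.

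Complex II had a median difference of -0.20 over its 4 genes, and none passed without the block. SDH1, the flavoprotein that oxidizes succinate, read 9.07, 8.42 and 8.57 in wild type and 8.63, 7.86 and 8.32 in the deletion strain. SDH2, the iron-sulphur subunit, read 10.01, 9.29 and 9.41 against 9.64, 8.83 and 9.22. Replicate 1 was the highest in both strains and both genes, so that the strains overlapped although every pair was lower in the deletion strain. The differences were -0.42 ± 0.23 and -0.34 ± 0.25, and limma's adjusted p was 0.280 and 0.416 without the block but 0.0130 and 0.0228 with it.

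The other 2 genes encode the membrane anchor subunits. SDH4 read 10.76, 10.16 and 10.40 in wild type and 10.85, 10.28 and 10.52 in the deletion strain, which is 0.11 ± 0.19 higher and did not pass with or without the block. SDH3, the other anchor, had a difference of -0.05 ± 0.13. The 95% intervals of all 4 genes overlapped, and whether the anchors differ from SDH1 and SDH2 was not tested. On the deposited values the 4 genes had differences of 0.14, 0.21, 0.49 and 0.66, from SDH1 to SDH4, so the sign for SDH1 and SDH2 holds only relative to the shift of all genes.

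In complex III the median difference was -0.07 over 9 genes, and none passed without the block. COR1, a core subunit, read 11.27, 10.80 and 10.99 in wild type and 10.80, 10.37 and 10.48 in the deletion strain. Its pairs differed by -0.47, -0.43 and -0.51, a narrow range, and it passed with the block (limma adjusted p = 0.00447, and 0.0987 without). CYT1, cytochrome c1, which donates electrons to cytochrome c, read 10.51, 9.91 and 10.02 against 9.98, 9.43 and 9.78. It had a difference of -0.42 ± 0.20 and passed with the block only (limma adjusted p = 0.0128).

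The small subunit QCR8 had the highest difference of the complex, with 12.21, 12.41 and 12.58 in wild type and 12.60, 12.69 and 12.46 in the deletion strain. That is 0.18 ± 0.12, with the third pair of opposite sign. The other 6 genes, QCR2, QCR6, QCR7, QCR9, QCR10 and the Rieske protein RIP1, had differences of -0.17 to 0.10, and none passed in either fit. RIP1 could be read in more than 1 place, since the array carries control probe sets along its transcript. Their differences were 0.00074 at the 5' end, -0.15 in the middle and 0.11 at the 3' end, beside 0.02 ± 0.15 on the gene's own probe set, all within the spread between arrays.

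Complex IV had a median difference of -0.02 over 9 genes, and its exception was COX5B. COX5A and COX5B encode alternative forms of subunit Va and Vb, the first used in air and the second at low oxygen. COX5B read 10.76, 10.67 and 11.28 in wild type and 10.03, 10.03 and 10.54 in the deletion strain, without overlap. Its difference was -0.70 ± 0.20, with pairs at -0.72, -0.64 and -0.73, and it passed with the block but not without (limma adjusted p = 8.78e-04 and 0.0634).

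COX5A read 11.88, 11.69 and 11.71 against 11.76, 11.50 and 11.75, a difference of -0.09 (95% interval -0.35 to 0.17) that did not pass. The log2 ratio of COX5A to COX5B within an array was 1.13, 1.01 and 0.43 in wild type and 1.73, 1.47 and 1.21 in the deletion strain. It was higher in 3 of 3 pairs, by a mean of 0.61. The exact permutation p, which takes no account of the pairs, was 0.1, the smallest that 3 against 3 arrays allow (2-sided, 0.2 after adjustment over the 2 pairs). The ratio was not tested with replicate number as a block. The ratio itself has no absolute meaning, since probe sets bind with different strength, and the strain difference alone is read.

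The other 7 subunits of complex IV had differences of -0.08 to 0.14, and none passed in either fit. COX12 was the highest of them, with 11.72, 12.24 and 12.37 in wild type and 12.12, 12.31 and 12.31 in the deletion strain. Its wild type arrays spanned more than the whole difference between strains. COX4, COX6, COX7, COX8, COX9 and COX13 make up the rest of the nuclear subunits and had differences on both sides of 0.

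ATP synthase had a median difference of 0.02 over 13 genes, and none passed without the block. ATP1, the alpha subunit of the catalytic head, read 13.03, 12.86 and 12.73 in wild type and 12.61, 12.41 and 12.56 in the deletion strain, without overlap. It had the lowest difference of the complex, -0.34 ± 0.11 (limma adjusted p = 0.0863, and 0.0259 with the block). ATP2 and ATP3, the beta and gamma subunits of the same head, had differences of -0.12 ± 0.17 and -0.24 ± 0.16 and passed in neither fit.

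ATP18, a small membrane-sector subunit, had the highest difference of the complex. It read 11.01, 10.72 and 11.25 in wild type and 11.31, 11.15 and 11.51 in the deletion strain, 0.33 ± 0.16. ATP7, the stalk subunit d, read 11.40, 10.98 and 11.31 against 11.57, 11.27 and 11.69, 0.28 ± 0.15. Both were higher in all 3 pairs and passed with the block only (limma adjusted p = 0.0189 and 0.0383). The remaining 8 subunits, ATP4, ATP5, ATP14, ATP15, ATP16, ATP17, ATP20 and TIM11, had differences of -0.09 to 0.11, and none passed.

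The 44 genes varied more between replicates than the median gene. Their median SD over 3 arrays was 0.239 for wild type and 0.178 for the deletion strain, against 0.153 and 0.128 over all genes. Without the block their median SE of a strain difference was 0.155, against 0.120 for all genes, and with it 0.085, against 0.084. This shared variation was not of 1 kind. In wild type, replicate 1 had the highest array of 21 genes, among them SDH1, SDH2, COR1, CYT1 and ATP1, and the lowest of 13, among them COX7, COX9, COX12, ATP17 and TIM11.

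**Figure D3:**
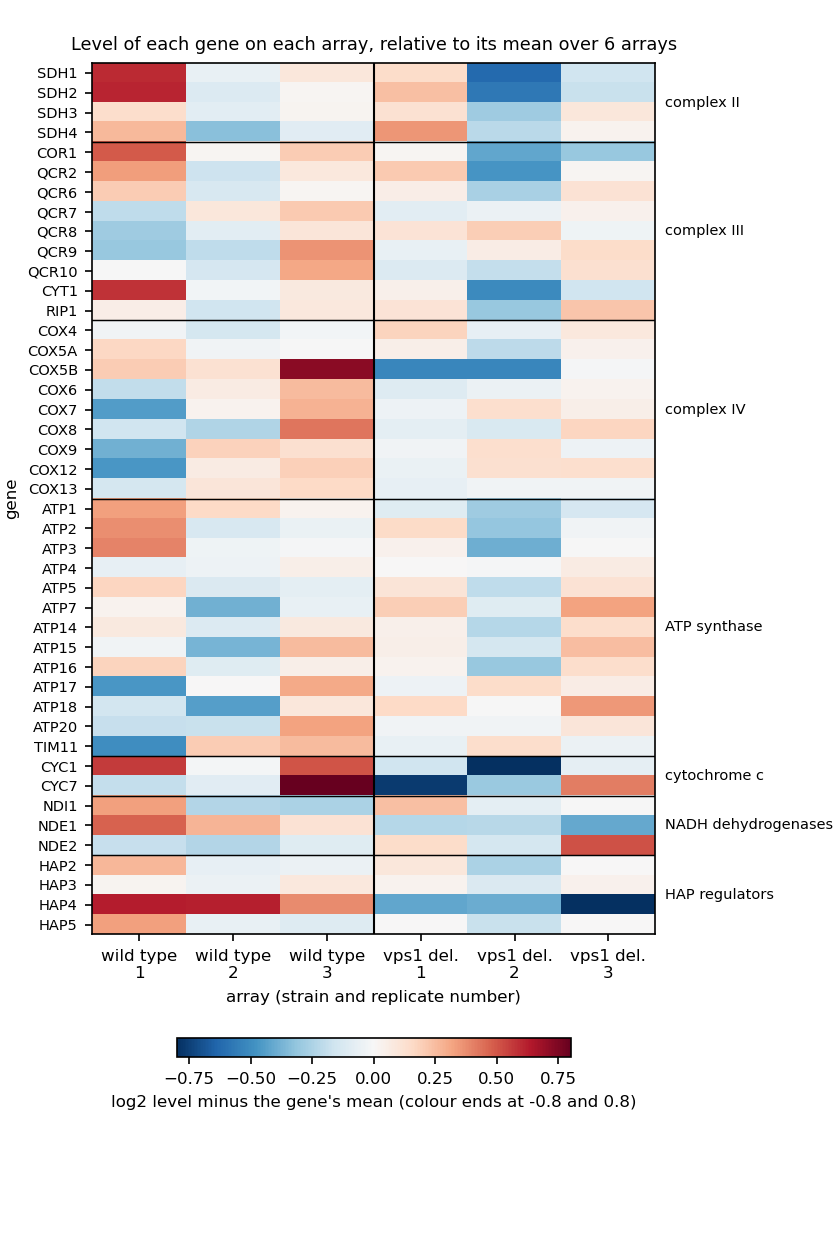
Level of each of the 44 genes on each of the 6 arrays, as log2 level minus the gene's mean over all arrays; red is higher and blue lower, and colours end at -0.8 and 0.8. Wild type replicate 1 is red in complex II and blue in several small subunits of complexes III and IV and of ATP synthase, while HAP4 and NDE1 separate the strains.

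The genes in which wild type replicate 1 was low were the short ones. Among the 22 members of at most the median coding length of 475.5 bases, replicate 1 was the lowest wild type array in 12 and the highest in 3. Among the 22 longer members it was the lowest in 1 and the highest in 18. Over the 44 genes, coding length and the deviation from the strain mean had a Spearman rho of 0.72, -0.10 and -0.81 on wild type replicates 1, 2 and 3, against 0.06, 0.11 and -0.21 over all genes. On the deletion replicates it was 0.66, -0.42 and -0.21, against 0.05, 0.24 and -0.35. Wild type replicate 2 thus had little relation to length, and on deletion replicate 3 that of the 44 genes was weaker than that of all genes. These are descriptions across genes that share the same arrays, and they were chosen after the values were seen.

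The strain differences also lay lower in the longer genes, with a median of -0.12, against 0.0033 in the shorter ones. The Spearman rho of coding length and difference was -0.46 over the 44 genes and -0.10 over all genes. The longer members include catalytic and core subunits and the NADH dehydrogenases. Among them are also SDH3, SDH4, ATP4, ATP5, ATP7, ATP16, HAP2, HAP4 and HAP5. Length and role thus move together only in part here. By the lengths of the gene table, CYC1 and CYC7, of 330 and 342 bases, were the members among the 22 shorter genes that passed as lower with the block. COX5B is listed there at 544 bases and was therefore counted among the longer 22. That length is not a multiple of 3, so it is not a plain coding length, and the group to which COX5B belongs is uncertain. A length that is a multiple of 3 can also hold bases that are not coding. This was not checked for the other members, so their groups too are those of the listed lengths. The part of transcript length in the differences of SDH1, SDH2, COR1, CYT1, COX5B, ATP1, NDE1 and HAP4 was not tested.

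**Figure D4:**
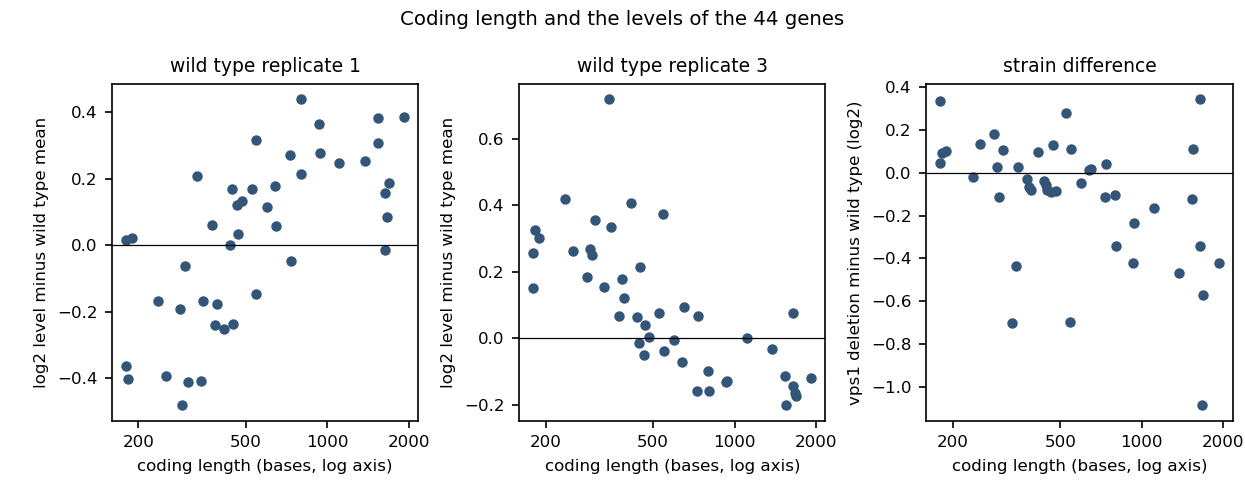
Coding length (bases, log axis) of the 44 genes against their log2 deviation from the wild type mean on wild type replicate 1 and on wild type replicate 3, and against the strain difference. Short genes sit low on wild type replicate 1 and high on replicate 3; in the strain difference most short genes lie near 0, with CYC1 and CYC7 below them.

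Genes that assemble, feed or regulate the chain were read as 13 lists. With the mating type lists they hold 147 different genes, of which 145 were measured. Their directions too are relative to the shift of all genes. In the list of oxygen, haem and glucose regulators 1 of 13 rose and 0 fell, against 6.77% and 6.28% of all genes. It was HAP1, the haem-responsive activator of CYC1 and other respiratory genes, which rose by 0.88 ± 0.14 (limma adjusted p = 0.00730). It thus moved in the direction opposite to HAP4. The HAP1 allele of laboratory strains related to S288C carries a Ty1 insertion. What part of the transcript this probe set reads, and whether its product is active in these strains, was not tested. The oxygen-dependent repressor gene ROX1 had a difference of -0.30 ± 0.21, and MIG1, a glucose repressor, of -0.40 ± 0.26; neither passed, though MIG1 did with the block (limma adjusted p = 0.0126). With the block 3 of 13 were higher, HAP1, CAT8 and SIP4, and 2 lower, MIG1 and RTG1, against 14.4% and 16.4% of all genes.

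Of the assembly genes of complex III, 2 of 12 fell and 0 rose, against 6.28% and 6.77% of all genes, with a list median of -0.22: BCS1, which inserts the Rieske protein, fell by 0.40 ± 0.08, and CBP1, which stabilizes cytochrome b mRNA, fell by 0.44 ± 0.10. With the block 4 of 12 were lower, CBP6 and CYT2 being the further ones, against 16.4% of all genes. For complex IV, 2 of 32 fell and 0 rose, which is 6.25% and close to the share of all genes that fell, with a median of -0.14. COA2, an assembly factor of cytochrome oxidase, fell by 1.20 ± 0.11 (limma adjusted p = 6.41e-04), and PET494, a translational activator of COX3, fell by 0.39 ± 0.10. With the block 4 of 32 were lower, PET122 and PET191 being the further ones, and 2 were higher, against 16.4% and 14.4% of all genes. The 2 were COX10 at 0.26 ± 0.09 and COA4 at 0.36 ± 0.11 (limma adjusted p = 0.0454 and 0.0158). The fall of COA2 was larger than any of the structural subunits showed.

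For ATP synthase 2 of 14 assembly and expression genes rose and 0 fell, against 6.77% and 6.28% of all genes. ATP22 rose by 0.67 ± 0.10 and NCA3 by 0.88 ± 0.16. Both are linked to expression of the subunits that mitochondrial DNA encodes. With the block AEP3 was also higher, at 0.31 ± 0.15, and ATP12 lower, at -0.29 ± 0.09. That is 3 of 14 higher and 1 lower, against 14.4% and 16.4% of all genes. In complex II assembly 0 of 5 passed, against 13.0% of all genes. With the block SDH6 and SDH8, assembly factors of succinate dehydrogenase, passed at 0.96 ± 0.31 and 0.50 ± 0.15, opposite in sign to SDH1 and SDH2 (limma adjusted p = 0.00729 and 0.00649). These were 2 of 5 higher, and 0 were lower, against 14.4% and 16.4% of all genes.

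Haem and ubiquinone are among the cofactors of the chain. In haem synthesis 2 of 8 genes rose and 0 fell, against 6.77% and 6.28% of all genes. HEM13, coproporphyrinogen oxidase, a step that uses oxygen and is induced when oxygen is low, rose by 0.68 ± 0.18. HEM14, the next oxidase, rose by 0.58 ± 0.12. HEM13 passed by a narrow margin (limma adjusted p = 0.0494), and HEM2 passed as higher with the block only. The block thus called 3 of 8 higher and 0 lower, against 14.4% and 16.4% of all genes. In coenzyme Q synthesis 1 of 11 fell and 0 rose, against 6.28% and 6.77% of all genes. It was CAT5, also named COQ7, a hydroxylase, which fell by 0.56 ± 0.10. The other 10 had differences of -0.24 to 0.22.

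The tricarboxylic acid cycle supplies NADH and succinate. Of its 11 genes 1 fell, the malate dehydrogenase MDH1, by 0.85 ± 0.21 (limma adjusted p = 0.0364), and 0 rose, against 6.28% and 6.77% of all genes. With the block ACO1, IDH2 and KGD1 also passed, at -0.85 ± 0.25, -0.67 ± 0.30 and -0.32 ± 0.13, so that 4 of 11 were lower, which is 36.4% against 16.4% of all genes. CIT2, the peroxisomal citrate synthase that rises in cells with defective respiration, rose by 0.87 ± 0.15 (limma adjusted p = 0.00984). DLD3 and PDH1, listed with it as markers of such a defect, had differences of 0.07 ± 0.15 and -0.35 ± 0.14 and did not pass. In this list 1 of 3 thus rose and 0 fell, against 6.77% and 6.28% of all genes. With the block PDH1 passed as lower (limma adjusted p = 0.0480), the direction opposite to CIT2, and DLD3 passed in neither fit. The block thus called 1 of 3 higher and 1 lower, against 14.4% and 16.4% of all genes.

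Of 4 further genes known as forms or targets of low oxygen, 1 fell and 0 rose, against 6.28% and 6.77% of all genes. AAC3, an ADP/ATP carrier of this kind, fell by 0.56 ± 0.11 (limma adjusted p = 0.0168), as COX5B and CYC7 did with the block. ANB1, HMG2 and OLE1 had differences of 0.10 ± 0.11, -0.11 ± 0.13 and -0.03 ± 0.14. In the list of paralogues and small accessory subunits, which also holds AAC3, 2 of 13 fell and 1 rose, against the same shares of all genes. AAC1, another ADP/ATP carrier, fell by 0.37 ± 0.09, and SHH3, a homologue of SDH3, rose by 0.87 ± 0.14 from a low level of 4.31; STF1, at 0.69 ± 0.32, passed as higher with the block only. Cross-hybridization between such paralogues was not tested.

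**Figure D5:**
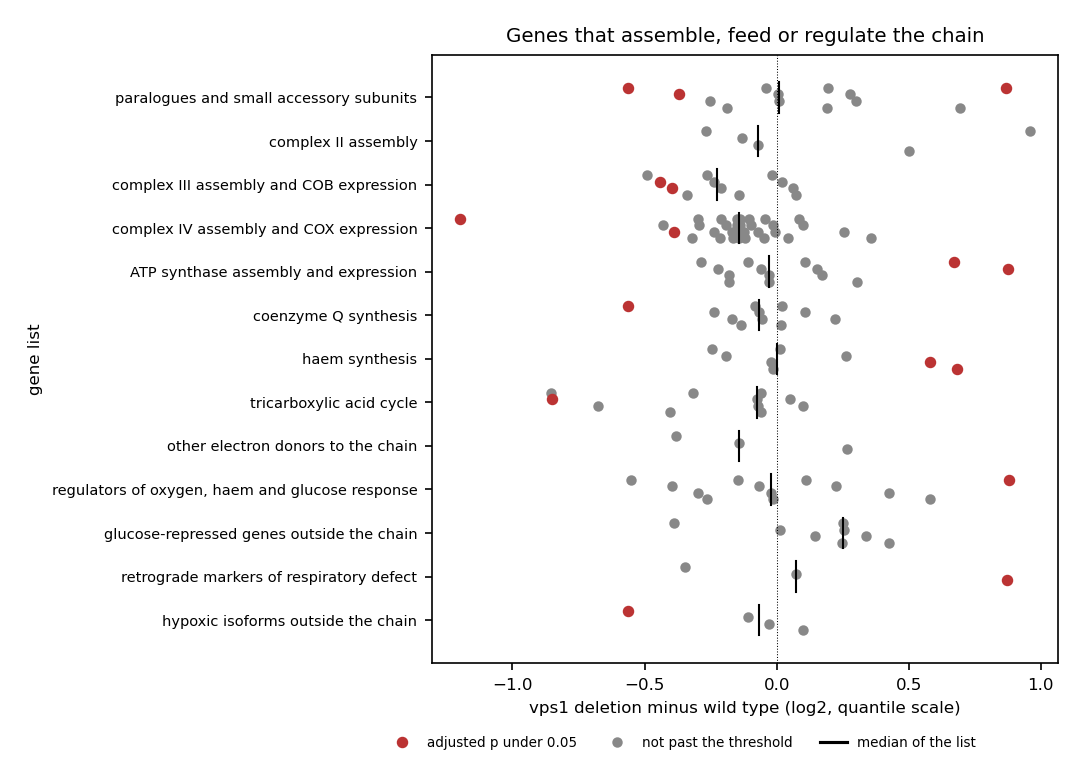
Strain differences (vps1 deletion minus wild type, log2) of the genes in 13 lists of assembly, cofactor, supply and regulatory genes; each point is a gene, red where its adjusted p is under 0.05, and the black bar is the list's median. COA2 lies lowest at -1.20, and the glucose-repressed genes have a median of 0.25 with 0 past the threshold.

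Glucose-repressed genes outside the chain, which are controlled by Cat8 and Adr1 and not by Hap4 alone, had a median of 0.25 over 8 genes. In limma 0 of them passed, against 13.0% of all genes. An unadjusted limma p under 0.05 was found in 4 of the 8, against 1574 of all 5449 genes. With the block PCK1 and ACS1 were higher, at 0.43 ± 0.16 and 0.34 ± 0.10, and ADH2 was lower, at -0.39 ± 0.11. That is 2 of 8 higher and 1 lower, against 14.4% and 16.4% of all genes. CAT8 had a difference of 0.58 ± 0.16 and passed with the block only (limma adjusted p = 0.0124). Of the 3 other genes that give electrons to the chain, GUT2, DLD1 and CYB2, 0 passed, against 13.0% of all genes. Their differences were -0.38, 0.27 and -0.14. With the block GUT2, the glycerol-3-phosphate dehydrogenase, passed as lower (limma adjusted p = 0.0276). The block thus called 1 of 3 lower and 0 higher, against 16.4% and 14.4% of all genes.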

How the data were processed

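The authors deposited log2 values, 1 for each probe set on each array. GCOS, RMA and limma are named in the submitters' processing notes, with roles, order and versions not given in the sources used here. Per the labels' protocols, RNA was column-purified and cRNA made from 100 ng by in vitro transcription. From these values, all 10928 probe sets were quantile normalized over the 6 arrays. Probe sets were named through the platform annotation and the R64 gene table, 5498 of them matching 5449 genes, and a gene took the probe set with the highest mean. Background was the 95th percentile of 1746 probe sets with names absent from that table. Strains were compared with limma 3.58.1 in R 4.3.3 (lmFit, eBayes), which was tested on simulated data. The simulated arrays had independent noise, so that test does not cover variation shared by arrays of 1 replicate number. Arrays have no read depth, and their number limits the precision. The isoform ratios used an exact permutation test. Differences are vps1 deletion minus wild type. Alternatives were other scalings, probe set rules, filters and variance models, the replicate block and leaving out arrays.

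Replicate numbers were taken to pair the arrays: over all genes, same-numbered arrays deviated from their strain's mean together, with r of 0.67, 0.65 and 0.29. Wild type replicate 3 had an r of 0.23 with deletion replicate 2, close to the 0.29 with its own number. The check therefore sets pair 3 apart only weakly. The pairing comes from the labels' replicate numbers and this check, not from a stated batch. The genes examined, the further lists and the scale were chosen with earlier results of these data known. Values on every array are given for VPS1, the HAP genes, both isoform pairs, the NADH dehydrogenases, the genes past the threshold and the highest and lowest gene of each complex. SDH2, CYT1 and ATP7 were added after their values were seen; of the further lists, members past the threshold are named, up to 4 a list, and others named beside them were chosen after their values were seen. Coding length is that of the R64 gene table, where 97% of lengths are multiples of 3. The length of COX5B is not, and whether the lengths of the other members hold coding bases only was not checked.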

Additional observations from a re-analysis of the deposited data

How the results depend on the processing

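On the values as deposited, where all genes had a median difference of 0.51, 4194 genes passed, 76.0% of all genes higher and 0.954% lower, and 32 of the 44 passed, 31 of them higher. Among those 31, the direction was opposite to that on the quantile scale for SDH3 at 0.49, QCR6 at 0.48, QCR7 at 0.46, QCR10 at 0.43, COX5A at 0.44, COX6 at 0.44, COX8 at 0.51, COX13 at 0.46, ATP14 at 0.50, ATP16 at 0.45, HAP2 at 0.44, HAP3 at 0.51 and HAP5 at 0.43. None of these passed on the quantile scale. The medians as deposited were 0.35, 0.46 and 0.51 for complexes II, III and IV, 0.56 for ATP synthase, -0.0030 for cytochrome c, 0.67 for the NADH dehydrogenases and 0.44 for the HAP genes. These values differ from the others by the shift between the arrays of the strains.

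When replicate number was a block 1676 genes and 12 of the 44 passed. In block fits on 2 pairs, added after seeing the data, the counts were 1257 and 7 without pair 1, 907 and 7 without pair 2, and 1629 and 12 without pair 3. COR1, COX5B, CYC1, NDE1 and HAP4 passed in all 4 block fits. Leaving out 1 array gave 315 to 791 genes and 1 to 2 of the 44; HAP4 passed each time, at adjusted p of 0.00540 to 0.0160. The count of genes moved by over 1.5 times without wild type replicate 2 (353) and without deletion replicate 1, 2 or 3 (359, 445 and 315). The median of complex IV ranged from -0.11 to 0.12, the latter without wild type replicate 3. The strain difference of the CYC1 to CYC7 ratio ranged from -0.64 to 0.044, the latter without wild type replicate 1, and that of COX5A to COX5B from 0.40 to 0.74. Median centring, cyclic loess, quantiles over named genes, the mean of a gene's probe sets, leaving out dim genes, an intensity trend and robust eBayes each called HAP4 and NDE1 and no other of the 44. When 1 array was left out, at most 12 of the 44 differences changed sign, none larger than 0.17 with all 6 arrays. Those differences passed neither with all 6 arrays nor with the array left out. On the deposited values 22 of the 44 changed sign, the largest of them 0.47 in size on the quantile scale. No hybridization or scan batch is given in the sources used here.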
